A study of Mus musculus with 18 samples.

Results

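The guanylate-binding protein genes Gbp2, Gbp3, Gbp4, Gbp5, Gbp6, Gbp7, Gbp8 and Gbp9 were followed in RNA-seq of mouse peritoneal macrophages. These 8 genes were taken by family name, with no cutoff on measured values, and 4 of them (Gbp2 to Gbp5) carry rows under their own Ensembl number in the files, where 13598 genes have a value. The cells came from TLR4-WT mice and from TLR4-K730R and TLR4-K810R mice, in which one lysine of the intracellular TIR domain of TLR4 (Toll-like receptor 4, the receptor for bacterial lipopolysaccharide) is replaced by arginine by CRISPR/Cas9 knock-in on the C57BL/6 background. The macrophages of every group had been drawn into the peritoneum with thioglycolate, and were either controls without LPS (mock) or received LPS (100 ng/ml, 6 h). Each of the 6 groups has 3 libraries. The age of the mice, and whether the 3 libraries of a group came from separate animals, are not given in the sources used here, so p-values measure only the spread between these libraries.

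Guanylate-binding proteins are large GTPases of the dynamin superfamily that interferons induce. They gather on the vacuoles and surfaces of intracellular bacteria and parasites, help to break them open and promote the activation of inflammasomes. In the mouse genome they lie in one cluster on chromosome 3 and another on chromosome 5, and in macrophages LPS raises them largely through interferon that the cells secrete and through transcription factors that include Stat2 and the interferon regulatory factors.

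Gbp5 (ENSMUSG00000105504) lies on chromosome 3 from 142493978 to 142522344 of GRCm38, Gbp7 (ENSMUSG00000040253) from 142530342 to 142550149, Gbp3 (ENSMUSG00000028268) from 142560026 to 142573209 and Gbp2 (ENSMUSG00000028270) from 142620602 to 142638008, all on the plus strand. Gbp4 (ENSMUSG00000079363) lies on the minus strand of chromosome 5 from 105115767 to 105139586 and overlaps Gbp9 (ENSMUSG00000029298, 105077630 to 105139539) and Gbp8 (ENSMUSG00000034438, 105014150 to 105139540). Gbp6 (ENSMUSG00000104713) lies on the same strand from 105270702 to 105293698. The RefSeq promoter table of GRCm38.p6 holds Gbp2, Gbp3, Gbp5 and Gbp7, and the bases before their first exons are shown because the members moved together after LPS. Capitals mark an interferon-stimulated response element of the letters GAAA, any 2 bases and again GAAA on either strand, or a gamma-activated site of the letters TTCNNNGAA (N is any base), which reads the same on both strands. The sequences of Gbp5 and Gbp3 end at the base before the first exon in GENCODE, and that of Gbp7 at the base before its RefSeq start.
Gbp5, chr3:142496750-142496899, plus strand: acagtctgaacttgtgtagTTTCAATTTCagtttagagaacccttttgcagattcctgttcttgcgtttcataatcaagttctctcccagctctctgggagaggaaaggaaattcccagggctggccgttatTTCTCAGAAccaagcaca
Gbp7, chr3:142530186-142530335, plus strand: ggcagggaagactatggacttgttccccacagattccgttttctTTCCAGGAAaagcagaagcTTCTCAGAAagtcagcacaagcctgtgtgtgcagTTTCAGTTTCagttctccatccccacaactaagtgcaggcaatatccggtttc
Gbp3, chr3:142559876-142560025, plus strand: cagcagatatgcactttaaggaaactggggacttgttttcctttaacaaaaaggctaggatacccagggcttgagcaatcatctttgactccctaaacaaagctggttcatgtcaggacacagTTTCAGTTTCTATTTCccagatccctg

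In the 250 bases before the RefSeq start, the response element was found once in Gbp5, once in Gbp7, once in Gbp2 and in the upstream one of 2 Gbp3 windows, where 2 overlapping matches lie 45 to 30 bases before the start. The Gbp2 match lies 59 to 50 bases before the start, at chr3:142620594-142620623 with 10 bases on each side (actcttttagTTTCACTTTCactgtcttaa), which is inside the longer first exon of GENCODE. Of 32851 promoter windows of this length, 2.98% hold the response element and 7.02% the gamma-activated site, which was found 2 times in Gbp5 (1 of them upstream of the bases shown) and 2 times in Gbp7. These are matches of letters and not measured binding.

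The values are FPKM (fragments scaled to transcript length and to the size of the library) of transcript events such as first exons and last exons. For each gene the first-exon FPKM and the last-exon FPKM were summed, and the larger sum was taken. The files assign one gene number to each merged locus, so 4 members have no row of their own: the first exon of Gbp7 is listed under the pseudogene Gm43802, Gbp8 and Gbp9 fall in the locus of Gbp4, and Gbp6 falls in that of Gbp11. For these, first and last exons were matched by position to annotated starts and ends, a step added after the files were seen. The first exon at 105139480 to 105139540 of chromosome 5 that gives the value of Gbp4 is shared in the annotation by Gbp4, Gbp8 and Gbp9, whereas 3 listed last exons belong to Gbp4 alone, 1 of them at 0.781 FPKM or less. The first exon of Gbp6 is shared with the readthrough gene Gm43302, and 70.7% of the 50-base windows of Gbp6 transcripts recur in another gene of the family, against 0% for Gbp5, 2.03% for Gbp2, 2.26% for Gbp7, 3.75% for Gbp3, 7.53% for Gbp4, 8.05% for Gbp9 and 18.1% for Gbp8. Values of Gbp6 are therefore uncertain. Without read counts the depth remains unknown.

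Of 8 macrophage markers 7 were listed, with a summed level of 7289 to 14785 FPKM over the 18 libraries. Itgam, a defining macrophage gene, was not listed and Cd14 was listed only in 1 TLR4-K810R library after LPS, so that a gene listed at 0 may be expressed. No NK cell marker was listed, and T cell, B cell, mast cell and eosinophil markers each summed to at most 0.958, 3.66, 4.61 and 2.79 FPKM. Group means of Tlr4, the mutated gene, lay between 10.4 and 12.5 FPKM without LPS and between 4.68 and 5.17 FPKM with LPS, which is no check of a point mutation.

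After LPS, Gbp2, Gbp3, Gbp5, Gbp7 and Gbp6 with Gm43302 rose in each genotype, and Gbp4 and Gbp9 had higher values in every LPS library than in any mock library. Gbp2, a prenylated member that coats pathogen vacuoles, was the most abundant. Replicates 1, 2 and 3 of TLR4-WT macrophages held 12.4, 15.5 and 12.02 FPKM of Gbp2 without LPS and 597, 601 and 429 FPKM with LPS. In TLR4-K730R it went from 8.79, 8.19 and 6.48 to 398, 362 and 609 FPKM, and in TLR4-K810R from 16.4, 12.1 and 10.7 to 359, 362 and 330 FPKM. Every LPS library lay far above every mock library. The ratio of LPS to mock means was 40.8 (TLR4-WT), 58.3 (TLR4-K730R) and 26.9 (TLR4-K810R), and the rises on the log2(FPKM + 1) scale, which understates changes of low genes, were 5.24, 5.67 and 4.66 (standard error 0.20 each, adjusted p = 1.65e-11, 5.07e-12 and 4.52e-11 from limma).

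Gbp5, which promotes assembly of the NLRP3 inflammasome, started near the lower end of detection. In TLR4-WT it was at 1.16, 0.723 and 1.26 FPKM without LPS and at 155, 144 and 86.8 FPKM with LPS. TLR4-K730R libraries held 0.762, 1.07 and 0.593 FPKM and then 89.0, 74.2 and 133 FPKM, and TLR4-K810R libraries 1.13, 0.944 and 0.774 FPKM and then 64.8, 76.5 and 71.3 FPKM. The ratios of means were 123 (TLR4-WT), 122 (TLR4-K730R) and 74.6 (TLR4-K810R). On the log2 scale the rises were 5.95, 5.75 and 5.20 (standard error 0.22, adjusted p from 1.32e-11 to 4.23e-11 from limma).

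Gbp3, another gene of the chromosome 3 cluster, went from 4.96, 7.97 and 3.76 FPKM to 175, 117 and 79.5 FPKM in TLR4-WT. It went from 2.27, 2.36 and 1.78 to 136, 80.2 and 179 FPKM in TLR4-K730R and from 4.91, 3.63 and 4.21 to 159, 139 and 70.0 FPKM in TLR4-K810R. Mock and LPS libraries did not overlap, while within each LPS group the libraries spread by a factor above that of Gbp2. The log2 rises were 4.23, 5.33 and 4.48 (standard error 0.35, adjusted p from 4.21e-09 to 6.72e-08 from limma).

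Gbp4 by its shared first exon was at 1.07, 1.18 and 0.823 FPKM in TLR4-WT without LPS and at 38.6, 36.3 and 23.8 FPKM with LPS. The TLR4-K730R libraries had 0, 0 and 0.475 FPKM and then 14.9, 18.6 and 31.7 FPKM. In TLR4-K810R it was at 0.917, 0.391 and 0.541 FPKM and then at 7.49, 10.4 and 8.49 FPKM. All 3 LPS libraries of TLR4-K810R lay below all LPS libraries of both other genotypes. Only 2 of 9 mock libraries reached 1 FPKM, so Gbp4 entered the fit through its LPS libraries and no test of LPS against mock is given for it.

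**Figure D1:**
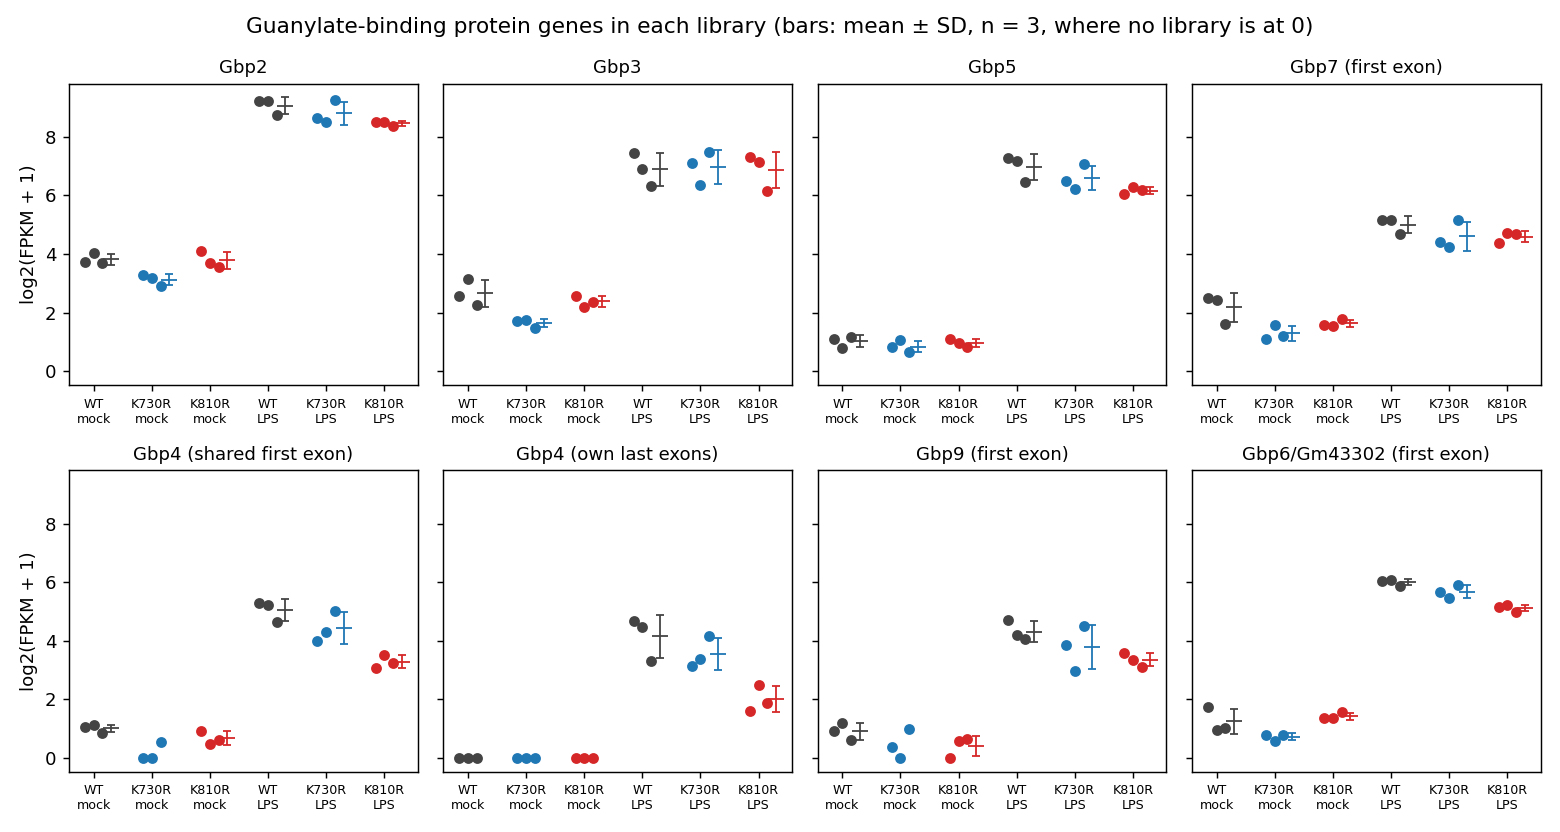
Level of the guanylate-binding protein genes that were tested (Gbp8 is not drawn) on the log2(FPKM + 1) scale (vertical axis) in the 3 libraries of each of the 6 groups (points), with mean ± SD where no library is listed at 0. LPS libraries sit above mock libraries in each panel, and the Gbp4 values of LPS-treated TLR4-K810R (7.49 to 10.4 FPKM by the shared first exon) sit below those of both other genotypes.

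Gbp2, Gbp3 and Gbp5, which reach the filter on their mock libraries alone, were thus called higher (adjusted p below 0.01) in TLR4-WT, TLR4-K730R and TLR4-K810R, where 10.4%, 9.32% and 9.08% of the 9707 genes tested were called higher. The median difference over all genes tested was -0.28, -0.36 and -0.26, and near 0 (-0.02, -0.04 and -0.04) with median-of-ratios scaling. Under that scaling the calls in TLR4-WT were 1493 higher and 1380 lower in place of 1012 and 2316. Neutrophil markers also summed to more after LPS (257 to 286 against 61.1 to 74.0 FPKM in TLR4-WT), with Ly6g at 0 in all 6 TLR4-WT libraries, and macrophage markers to less (7289 to 9465 against 13470 to 14785 FPKM). Of 5 neutrophil markers tested in TLR4-WT, 4 were higher after LPS (2 called) and 1 was lower (called), with a median difference of 0.78. Most of the first sum was S100a8 (29.0 to 207 FPKM in the mean), while Retnlg of that list was at 2.07 FPKM in the mock mean and listed at 0 in each LPS library, and S100a9 was below 1 FPKM in both means. Most of the second sum was Lyz2 (12484 to 7031 FPKM in the mean). Of 6 macrophage markers tested 4 were called lower, Fcgr1 was called higher (50.1 to 318 FPKM) and Adgre1 was at 220 and 222 FPKM. Mesothelial and fibroblast markers had higher means after LPS for 6 of 6 tested in TLR4-WT (1 called, sums of 31.3 to 48.2 and then 42.7 to 141 FPKM), and intestinal markers lower ones for 5 of 5 in TLR4-K810R (3 called, median difference -2.64, sums of 53.4 to 114 and then 0.127 to 19.9 FPKM). Fewer cells of a type and less RNA per cell cannot be told apart in such samples, and the part of these cells in the rise was not tested.

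The other members were matched by position. The first exon of Gbp7, a member that binds subunits of the phagocyte NADPH oxidase, was at 4.65, 4.44 and 2.06 FPKM in TLR4-WT and at 35.1, 35.0 and 24.6 FPKM after LPS. It went from 1.15, 1.97 and 1.29 to 20.4, 17.9 and 35.1 FPKM in TLR4-K730R and from 2.03, 1.93 and 2.44 to 19.7, 25.5 and 24.9 FPKM in TLR4-K810R. Its ratios of means, 8.50, 16.6 and 10.95, were the lowest in each genotype among the members for which a ratio could be formed. The log2 rises were 2.82, 3.32 and 2.95 (standard error 0.26, adjusted p from 4.10e-08 to 2.70e-07 from limma).

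The first exon of Gbp9 was at 0.899, 1.31 and 0.548 FPKM in TLR4-WT without LPS and at 25.1, 17.2 and 15.6 FPKM with LPS. The TLR4-K730R libraries had 0.292, 0 and 0.974 FPKM and then 13.6, 6.93 and 21.5 FPKM, and in TLR4-K810R it was at 7.4e-05, 0.511 and 0.556 FPKM and then at 11.1, 9.28 and 7.71 FPKM. The first exon shared by Gbp6 and Gm43302 rose from 2.37, 0.938 and 1.06 to 65.6, 65.7 and 57.8 FPKM in TLR4-WT. It rose from 0.720, 0.509 and 0.742 to 50.2, 42.7 and 58.2 FPKM in TLR4-K730R and from 1.56, 1.56 and 1.95 to 34.6, 35.9 and 30.8 FPKM in TLR4-K810R. This exon was called higher after LPS in each genotype, with log2 rises of 4.75, 4.95 and 3.69 (adjusted p = 1.56e-11, 8.25e-12 and 1.93e-10 from limma), where 10.4%, 9.27% and 8.92% of 10179 features matched by position were called higher. The first exon of Gbp9 reached 1 FPKM in 1 of 9 mock libraries, and the last exons that belong to Gbp4 alone were listed at 0 in 8 of 9, so both passed the filter only through LPS libraries and no test of LPS against mock is given for them.

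Gbp8 was barely listed. With LPS its own exons reached 0.646 FPKM in TLR4-WT replicate 1, 0.307 FPKM in TLR4-WT replicate 3 and 0.451 FPKM in TLR4-K730R replicate 3. It was listed at 0 elsewhere and was not tested. Of the family genes outside the 8 members, Gbp10 was listed in 3 LPS libraries with at most 3.16 FPKM, Gbp2b in 1 library at 0.524 FPKM and Gbp11 by position in 1 library at 0.987 FPKM.

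Between TLR4-K810R and TLR4-WT after LPS, Gbp4 was the only member called by gene number. TLR4-K810R had a mean of 8.81 ± 1.497 FPKM, which is 26.8% of the 32.9 ± 7.98 FPKM of TLR4-WT (SD, n = 3 each). The log2 difference was -1.77 (standard error 0.25, 95% interval -2.31 to -1.23, adjusted p = 0.00506 from limma), where 0.0824% of genes tested were called lower. Over all genes tested the median difference was 0.11, or -0.01 with median-of-ratios scaling. The call rests on few libraries. Under other processing it was kept in 6 of 11 alternatives, with adjusted p up to 0.109. It was kept without replicate 3 of LPS-treated TLR4-WT (adjusted p = 0.00184) and lost without any one of the other 5 libraries, namely replicates 1 and 2 of TLR4-WT (0.0360 and 0.0245) and replicates 1, 2 and 3 of TLR4-K810R (0.0248, 0.0119 and 0.0285). The direction was the same in all 6 of these fits, with log2 differences from -1.98 to -1.64.

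The last exons that belong to Gbp4 alone gave the same order. They were at 24.3, 21.2 and 9.02 FPKM in LPS-treated TLR4-WT, at 7.75, 9.47 and 16.97 FPKM in TLR4-K730R and at 2.07, 4.61 and 2.72 FPKM in TLR4-K810R. In mock-treated macrophages they were listed at 0 in 8 of 9 libraries. All TLR4-K810R libraries lay below those of both other genotypes, and the difference from TLR4-WT was -2.15 on the log2 scale (standard error 0.31, adjusted p = 0.00518 from limma, with 0.0982% of features by position called lower). This call too was lost without any 1 library other than TLR4-WT replicate 3 (adjusted p from 0.0116 to 0.0360 from limma), and was kept in 4 of 7 processing alternatives (adjusted p up to 0.174). The near last exon, at 105122909 to 105123120, was at 13.5, 12.5 and 4.73 FPKM in TLR4-WT and at 0.00515, 2.09 and 0.676 FPKM in TLR4-K810R. The far last exon, at 105115767 to 105118499, was at 10.9, 8.67 and 4.28 FPKM in TLR4-WT and at 2.07, 2.51 and 2.05 FPKM in TLR4-K810R. As a share of both last exons the far one took 41.0 to 47.5% in TLR4-WT, 49.4 to 60.5% in TLR4-K730R and 54.5 to 99.8% in TLR4-K810R.

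**Figure D2:**
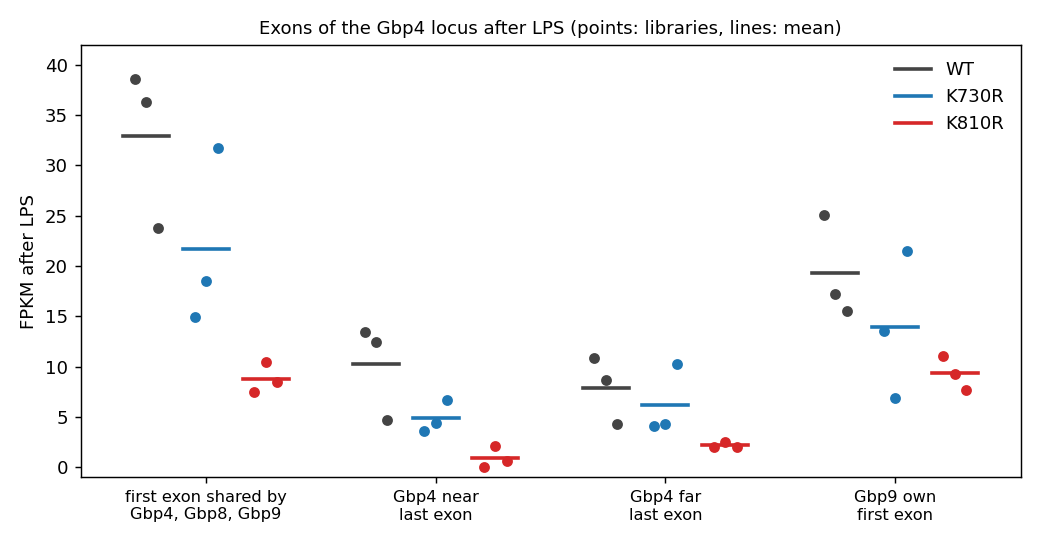
FPKM after LPS (vertical axis) of 4 exons of the Gbp4 locus in 3 libraries of each genotype (points), with the mean as a line. TLR4-K810R libraries lie below all TLR4-WT libraries at each exon, with means of 0.925 against 10.2 FPKM at the near last exon, 8.81 against 32.9 FPKM at the shared first exon and 9.36 against 19.3 FPKM at the first exon of Gbp9.

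The other members in LPS-treated TLR4-K810R were not called. For Gbp2 the means (± SD, n = 3 each) were 351 ± 17.5 FPKM and, in TLR4-WT, 542 ± 98.5 FPKM (log2 difference -0.61, 95% interval -1.04 to -0.19, adjusted p = 0.101 from limma). For Gbp5 it was 70.9 ± 5.86 against 129 ± 36.5 FPKM (log2 difference -0.81, 95% interval -1.28 to -0.34, adjusted p = 0.0604 from limma), and Gbp5 was called when TLR4-WT replicate 3 was left out (-1.07, adjusted p = 0.00715), a fit in which 283 genes were called in place of 13. The libraries of Gbp2, Gbp4 and Gbp5 did not overlap between the genotypes, with those of TLR4-K810R lower, as for 7.89% of all genes tested. Gbp3 had nearly equal means, 123 and 124 FPKM, with an interval of the log2 difference from -0.76 to 0.71. Its sign changed with the value used, since the last-exon sum gave 0.48.

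Among members by position, the exon of Gbp6 with Gm43302 was at 33.8 ± 2.66 FPKM and in TLR4-WT at 63.0 ± 4.52 FPKM (log2 difference -0.88, adjusted p = 0.0239 from limma, and 0.00686 with library weights, the only one of 7 alternatives that called it), and the first exon of Gbp9 at 9.36 ± 1.68 against 19.3 ± 5.10 FPKM (log2 difference -0.95, adjusted p = 0.127 from limma), in SD with n = 3 each. Both sets of libraries, and those of the Gbp4 last exons, lay below TLR4-WT without overlap, as for 7.96% of features by position. Gbp7 overlapped, with a log2 difference of -0.41 (adjusted p = 0.385). Intestinal markers summed to 0.127 to 19.9 FPKM in these TLR4-K810R libraries and to 0.0928 to 14.1 FPKM in those of TLR4-WT, and mesothelial and fibroblast markers to 101 to 121 and to 42.7 to 141 FPKM, ranges that overlap. Neutrophil markers summed to 209 to 241 FPKM and to 257 to 286 FPKM in TLR4-WT, without overlap. Most of these sums was S100a8 (means of 181.5 and 207 FPKM, not called), while S100a9 of the same list averaged 1.88 FPKM with the K810R receptor, where all 3 libraries exceeded 1 FPKM, and 0.0732 FPKM with the WT receptor. The part of these cells in the differences was not tested.

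**Figure D3:**
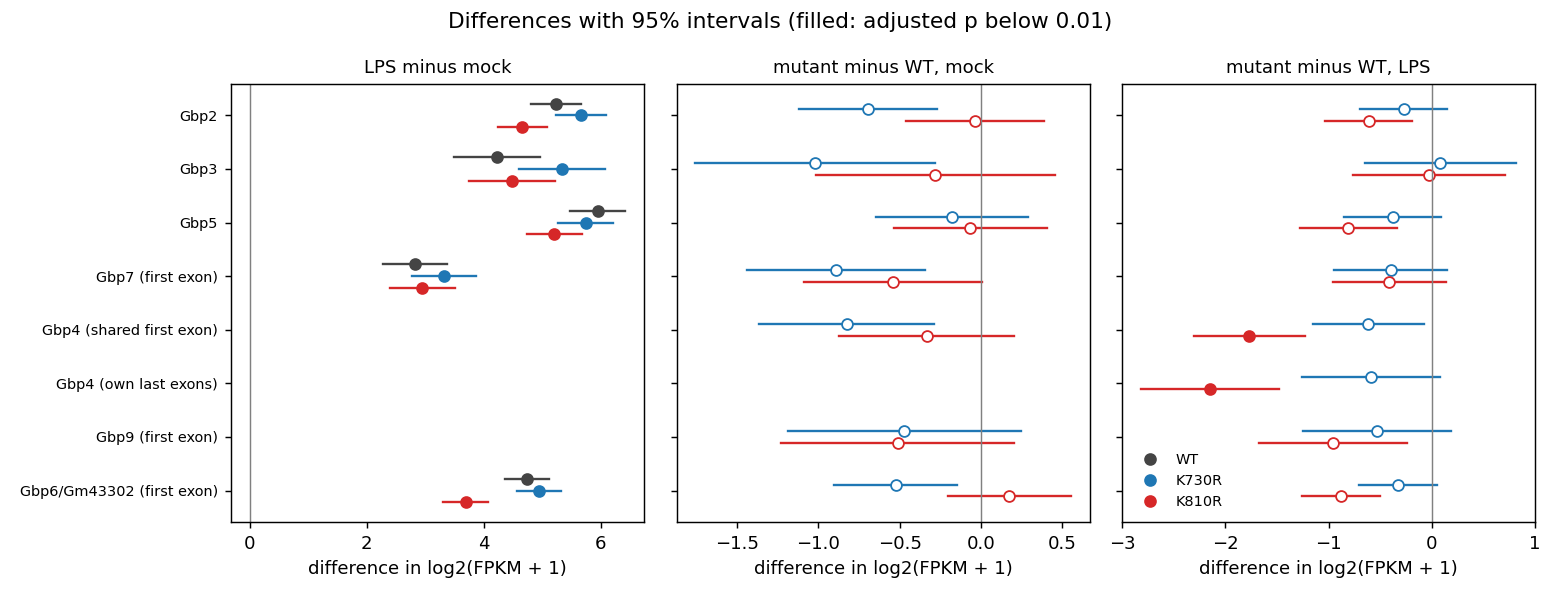
Differences in log2(FPKM + 1) (horizontal axis) with 95% intervals for LPS minus mock in each genotype and for each mutant minus TLR4-WT without and with LPS; filled points have an adjusted p below 0.01, the last exons of Gbp4 are drawn only for LPS libraries, and Gbp4 and Gbp9 are left out of the first panel. The filled points in the last panel are both values of Gbp4 in TLR4-K810R, at -1.77 and -2.15.

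In LPS-treated TLR4-K730R no member was called against TLR4-WT, and 0 of 9707 genes were called by limma (746 at an unadjusted p below 0.05). The 8 values of members had adjusted p from 0.634 to 0.981. Gbp4 was at 21.7 ± 8.81 FPKM (SD, n = 3), with a log2 difference of -0.61 (95% interval -1.15 to -0.08), and its own last exons had -0.59 (95% interval -1.26 to 0.08). Intestinal markers summed to 50.2 to 57.1 FPKM in these libraries, above TLR4-WT, and their part was not tested. Between both mutants after LPS no member was called, where 0.0618% of genes and 0.0884% of features by position were. The log2 difference of TLR4-K810R from TLR4-K730R was -1.16 for Gbp4 (adjusted p = 0.0400 from limma) and -1.56 for its last exons (adjusted p = 0.0298). Libraries did not overlap, with TLR4-K810R lower, for 1 of 4 members by gene number (4.44% of all genes tested) and for Gbp4 and Gbp6 with Gm43302 by position (4.56%). Marker sums did not overlap either between TLR4-K810R and TLR4-K730R, at 101 to 121 and 47.3 to 47.7 FPKM for mesothelium and fibroblasts, 0.127 to 19.9 and 50.2 to 57.1 FPKM for intestine, and 209 to 241 and 242 to 283 FPKM for neutrophils, and their part was not tested. Comparisons of a mutant with TLR4-WT share the TLR4-WT libraries.

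Libraries of one group shifted together. Replicate 3 of LPS-treated TLR4-WT was the lowest of its group for all 8 member values, and replicate 3 of LPS-treated TLR4-K730R was the highest of its group for all 8. In LPS-treated TLR4-K810R replicate 2 was the highest for 6 of 8 values. These values share libraries and partly exons and are no independent replicates.

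Without LPS, none of the members was called in either mutant, where 0.216% of genes in TLR4-K730R and 0.649% in TLR4-K810R were called lower (0.246% and 0.668% of features by position). Gbp2 had means of 7.82 ± 1.20 FPKM with K730R and 13.3 ± 1.90 FPKM with WT receptor, and Gbp3 of 2.14 ± 0.309 and 5.56 ± 2.17 FPKM (SD, n = 3 each). The log2 differences were -0.70 for Gbp2 (adjusted p = 0.245 from limma), -1.02 for Gbp3 (0.426), -0.83 for Gbp4 (0.313), -0.89 for Gbp7 (0.240) and -0.52 for Gbp6 with Gm43302 (0.420). All of these had TLR4-K730R libraries below TLR4-WT libraries without overlap, 3 of 4 by gene number, where this held for 7.45% of genes tested, and 2 of 4 by position (7.51%). Intestinal markers summed to 43.1 to 70.0 FPKM in mock-treated TLR4-K730R and to 0.118 to 0.670 FPKM in TLR4-WT, and mesothelial and fibroblast markers to 59.5 to 68.2 and to 31.3 to 48.2 FPKM. Mast cell markers summed to 0.423 to 2.58 and to 4.16 to 4.42 FPKM and B cell markers to 1.46 to 2.28 and to 2.30 to 3.66 FPKM, lower in TLR4-K730R without overlap. Their part in these values was not tested. In mock-treated TLR4-K810R every member overlapped TLR4-WT.

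The rise after LPS itself was compared between genotypes. For Gbp6 with Gm43302 the log2 rise in TLR4-K810R minus that in TLR4-WT was -1.05 (adjusted p = 0.0763 from limma). Gbp4 and Gbp9 passed the filter only through LPS libraries, so this difference is not given for them. For the last exons of Gbp4, at 0 in nearly all mock libraries, it only restates the difference after LPS. With TLR4-WT mock replicate 1 left out, Gbp6 with Gm43302 passed the threshold (-1.31, adjusted p = 0.00720 from limma). Intestinal and mesothelial or fibroblast markers, whose highest sums were in mock-treated TLR4-K810R, had medians of -3.49 (5 of 5 tested lower) and -1.70 (6 of 6 lower) in this comparison, none called, and their part was not tested. Gbp4 and Gbp9 aside, none of the members passed with all libraries, where 0.124% of genes tested and 0.138% of features by position were called. In TLR4-K730R the largest difference among the same members was that of Gbp3, 1.11 (95% interval 0.07 to 2.15, adjusted p = 0.681 from limma). None of them was called there, where 0.0412% of genes and 0.0491% of features by position were.

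Gbp3 has 3 listed first exons, whose shares were not tested and are described. The upstream one, at 142560026 to 142560283, follows the bases shown above with their 2 overlapping response elements. It took 51.1, 53.4 and 55.4% of the first-exon FPKM in mock-treated TLR4-WT libraries and 98.5, 93.9 and 94.5% after LPS. The second one, at 142560411 to 142560690, held most of the rest without LPS (43.5 to 48.9%) and was listed at 0 in all LPS libraries of TLR4-WT and TLR4-K730R. Most of its bases, 142560496 to 142560690, are also listed as an internal exon spliced from the upstream one. After LPS this internal exon was at 78.6, 50.1 and 38.99 FPKM in TLR4-WT and at 126.7, 43.57 and 84.25 FPKM in TLR4-K730R. How reads were divided between these overlapping exons was not tested. In mock-treated TLR4-K730R the upstream exon took 0, 14.8 and 0%, below all TLR4-WT libraries, and after LPS 88.7 to 98.4%. In TLR4-K810R the libraries disagreed, with 6.11, 0 and 84.4% without LPS and 93.4, 33.8 and 94.99% with LPS. Shares in mock-treated cells rest on low FPKM. The second RefSeq window of Gbp3 holds no response element, but its start, at 142560356, lies upstream of the second exon. The bases directly before that exon were therefore not searched.

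**Figure D4:**
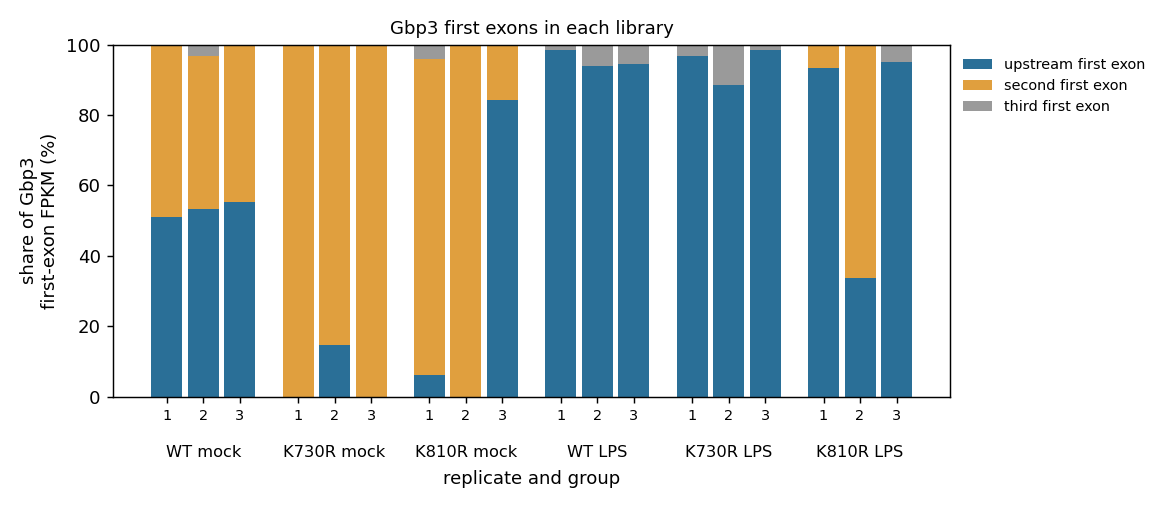
Share of the Gbp3 first-exon FPKM in percent (vertical axis) taken by each of 3 first exons in each library (bars). The upstream exon takes 51.1 to 55.4% in mock-treated TLR4-WT and 93.9 to 98.5% after LPS, and 1 TLR4-K810R library after LPS is at 33.8%.

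Gbp5 has an exon at 142518120 to 142519059 that is kept in some listed forms and skipped in others. After LPS the share of forms that keep it was 0.819, 0.378 and 8.86% in TLR4-WT and 0.327, 10.2 and 0.639% in TLR4-K730R. The TLR4-K810R libraries had 7.03, 6.78 and 7.19%. They lay close together within the range of the others.

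Transcription factors and signalling genes of the interferon pathway were followed beside the members. Of 22 genes on this list 18 were tested. After LPS, the genes called higher numbered 10 with the WT receptor, 9 with K730R and 10 with K810R. Those called lower numbered 2, 3 and 2. By sign alone, 12, 12 and 13 of the 18 were higher. Over all genes tested, 10.4%, 9.32% and 9.08% were called higher, and 23.9%, 26.5% and 19.7% were called lower. The median difference of the 18 genes in TLR4-WT was 0.59, against -0.28 over all genes tested. Usp18, which restrains interferon receptor signalling, rose by 3.52 on the log2 scale in TLR4-WT, Batf2, an interferon-induced transcription factor, by 3.30 and Irf7, a driver of type I interferon transcription, by 2.95 (limma, adjusted p at most 5.20e-06). Irf8, Ifnar2 and Socs1 were not listed.

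In mock-treated macrophages Irf7 and Usp18 were lower in both mutants. Irf7 (mean ± SD, n = 3 each) stood at 110 ± 33.01 FPKM with WT receptor, 14.8 ± 12.1 FPKM with K730R and 15.2 ± 2.75 FPKM with K810R, with log2 differences of -3.03 and -2.75 (adjusted p = 0.000371 and 0.000388 from limma). Usp18 was at 20.8 ± 3.59, 6.11 ± 0.122 and 4.03 ± 0.598 FPKM (adjusted p = 0.000217 and 4.39e-06). These were 2 of the 18 tested genes in each comparison, beside 0.216% and 0.649% of all genes called lower. In mock-treated TLR4-K810R, intestinal markers summed to 53.4 to 114 FPKM and mesothelial and fibroblast markers to 113 to 274 FPKM, above TLR4-WT, with 3 genes of each list called higher. Mast cell markers summed to 0.797 to 2.22 FPKM, below the 4.16 to 4.42 FPKM of TLR4-WT. All 6 macrophage markers tested were lower than in TLR4-WT, with 0 called. The part of these cells was not tested. After LPS none of the 18 was called in either mutant, and in TLR4-K810R 11 of them were lower and 7 higher, with a median of -0.25 against 0.11 over all genes tested.

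Immunity-related GTPases, which act on the same vacuoles, were tested for 3 of 7 genes. Irgm1 and Irgm2 rose after LPS in each genotype, in TLR4-WT by 3.51 and 2.36 on the log2 scale. Iigp1 was below 1 FPKM in every mock library and reached the filter only through LPS libraries, so no test of LPS against mock is given for it. After LPS the means of Iigp1 (± SD, n = 3 each) were 5.23 ± 1.35 FPKM with K810R and 19.9 ± 5.12 FPKM with WT receptor (log2 difference -1.74, adjusted p = 0.00560 from limma), and Iigp1 was the only gene of the interferon, GTPase, inflammasome, Atg8 and prenylation lists called there. Of the inflammasome and pyroptosis list, 7 of 7 were tested, and in TLR4-WT 5 were called higher after LPS, beside 10.4% of all genes tested. Among them were Nlrp3 (2.99), Casp4, the sensor of cytosolic LPS (2.97), and Il18 (2.82), while Pycard fell (-0.76). Of genes of Atg8 conjugation, which deliver these GTPases to vacuoles, 8 of 10 were tested. In each genotype all 8 were lower after LPS and 4 were called, beside the 19.7 to 26.5% of all genes that were called lower. The differences in TLR4-WT were -1.67 for Atg7, -0.996 for Gabarapl1 and -0.63 for Gabarapl2. Of the prenylation enzymes 4 of 5 were tested, and Icmt fell in TLR4-WT by -0.79.

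**Figure D5:**
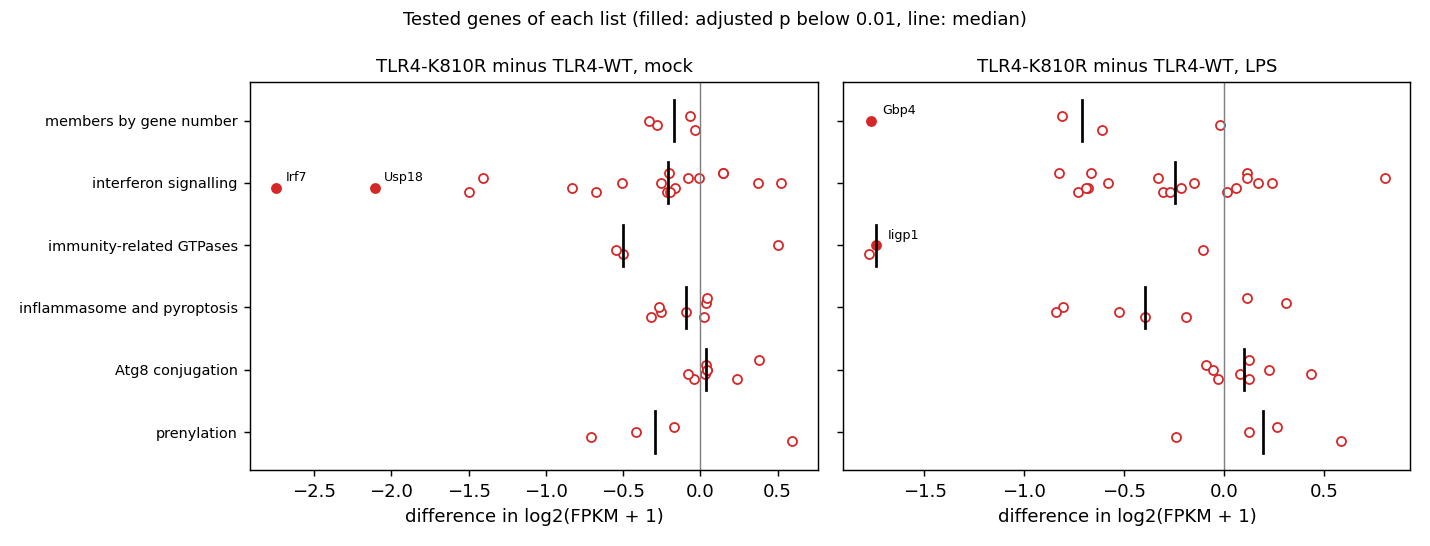
Difference in log2(FPKM + 1) between TLR4-K810R and TLR4-WT (horizontal axis) without and with LPS for the tested genes of each list (points, filled where the adjusted p is below 0.01) with the list median as a line. Irf7 (-2.75) and Usp18 (-2.11) are filled without LPS, and Gbp4 (-1.77) and Iigp1 (-1.74) with LPS.

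Genes most like the mean profile of Gbp2, Gbp3, Gbp4 and Gbp5 were ranked by the root mean square difference of centred log2 group means over the 6 groups. Gbp2 and Gbp3 ranked 2 and 4, and Gbp5 and Gbp4 lay farther off, at ranks 22 and 47. The profile is made of these same 4 genes, so their own ranks are partly built in. The 6 nearest genes that are not members were Il1rn (0.21), Ifi205 (0.23), Gm43181 (0.33), Slco3a1 (0.33), Il12a (0.35) and Apol9b (0.35). Mock means of Il12a and Apol9b were at most 0.0167 and 0.0974 FPKM, so both passed the filter only through LPS libraries. Il1rn, the interleukin 1 receptor antagonist, went from 53.5 to 1449 FPKM in the mean of TLR4-WT, from 40.8 to 1039 FPKM in TLR4-K730R and from 43.2 to 914 FPKM in TLR4-K810R. Ifi205, an interferon-inducible gene, reached 149, 117 and 73.2 FPKM after LPS.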

How the data were processed

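FPKM values of 20 kinds of transcript event are what the authors deposited, in 80071 to 90401 rows for a library. The aligner, the assembler and the counting program are not given in the sources used here; the submitters' processing notes name the human build hg18, while the coordinates match GRCm38, and of 14138 gene numbers 14126 are in GENCODE M21. First-exon and last-exon events were used where they lay on the same strand as the gene they name and overlapped it. The fit (limma 3.58.1, R 4.3.3) took log2(FPKM + 1) of the genes that reached 1 FPKM in 3 or more of the 18 libraries. It held all 6 groups, an intensity trend and Benjamini-Hochberg adjustment (two-sided, threshold 0.01 as in the study's methods). The test was checked on simulated data. Values by position gave an event to genes with an annotated start or end within 10 bases, an alternative chosen after seeing the data. Tables were made with Python 3.11.15 and pandas 2.3.3. No measured value entered the rule for the members, but members and lists were chosen with earlier results of these data known. Named genes were the 8 members, other family genes only for whether they are listed, the 6 genes nearest to the members' profile, Tlr4, and at most 3 called genes with the largest difference per list and comparison. Itgam, Cd14, Ly6g, Pycard, S100a8, S100a9, Retnlg, Lyz2, Fcgr1, Adgre1 and the genes not listed were named outside this rule. Alternatives covered the pseudocount, the filter, scaling, trend, library weights, a replicate block, the groups in the fit, the sums used and leaving out each library. Promoter sequences are those of RefSeq. Over 45 same-numbered pairs of libraries the deviations from group means correlated with r from -0.32 to 0.099. The main fit used no pairing, and these correlations cannot show whether same-numbered libraries share an animal or a batch.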

Additional observations from a re-analysis of the deposited data

How the results depend on the processing

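The rise after LPS of Gbp2, Gbp3, Gbp5, Gbp7 and Gbp6 with Gm43302 kept its direction and its side of the threshold in all 228 alternative values computed for it. Of the members, 1 (Gbp4) was called lower in LPS-treated TLR4-K810R, and this count was 0 with a pseudocount of 0.1 (adjusted p of Gbp4 0.0704 from limma), without a filter (0.0112), with only the groups compared (0.109) and with all events of the gene number (0.0278), and 2 (Gbp4 and Gbp5) with library weights, where 366 genes in all were called in place of 13. Leaving out 1 library gave 0 to 2, with 2 (Gbp4 and Gbp5, among 283 genes in all) without replicate 3 of LPS-treated TLR4-WT. Median-of-ratios scaling kept the call (-1.92, adjusted p = 0.00401). Gbp4 had differences from -2.15 to -1.46 over the alternatives. With a replicate block the count was 0 (adjusted p of Gbp4 0.0195 from limma). No same-numbered pair of libraries correlated above 0.1, which does not show whether such pairs share an animal or a batch. The call of the Gbp4 last exons was lost with a pseudocount of 0.1 (0.0127), with the block (0.0194) and with only the groups compared (0.174). The Gbp3 difference from TLR4-WT changed sign with the last-exon sum (0.48) and ranged from -0.30 to 0.34 when a library was left out. Over all members and comparisons 46 of 1560 alternative values changed sign, 0 of them for a difference that was called in either fit. The difference of the LPS response of Gbp6 with Gm43302 came under 0.01 without replicate 1 of mock-treated TLR4-WT (0.00720). Depth is unknown, so values near 1 FPKM and below have an unknown counting error.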
